A study of Mus musculus with 8 samples.

Results

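Liver miRNAs were compared between mice that had received CCL4 for 8 weeks and mice that had received olive oil alone for the same time. CCL4 is a liver toxin, and its repeated injection is a standard model of fibrosis, the deposition of scar matrix around injured liver cells. The mice were adult male C57BL/6J mice, aged 8 weeks when the injections began. CCL4 was given in olive oil, so both groups received the oil. Injections were intraperitoneal, 2 a week for the first 4 weeks and 1 a week for the next 4 weeks. RNA from the liver of CCL4 mice was read on 2 arrays (replicates 1 and 2), and RNA from olive oil mice on 1 array, out of 8 arrays that also covered 4 and 6 weeks. Nothing in the labels or methods says whether an array held 1 mouse or a pool of mice, so n counts arrays, and p-values measure only the spread between these arrays. Of 567 mouse miRNAs on the array, 146 were called detected by the scanner software on at least 1 of these 3 arrays, and these 146 are described here. Of them, 119 were detected on all 3 arrays, 10 on 2 and 17 on 1.

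A miRNA is a small RNA that guides a silencing complex to messenger RNAs, and its choice of targets rests mainly on the seed, bases 2 to 8 from the 5′ end. miRNAs with the same seed form a family and can share targets. In the liver, miR-122 is the main miRNA of hepatocytes, the miR-199 and miR-214 group is known from stellate cells and fibroblasts, the miR-200 family and miR-31 from epithelium, miR-223 and miR-142 from leukocytes, and miR-144 and miR-451 from red cells. miR-34a is a target of the tumour suppressor p53, and miR-29 is known to repress collagen messages. RNA of the whole liver was used, so fewer cells of a type and less of a miRNA per cell cannot be told apart.

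The mature sequences of the miRNAs on which the results turn are shown first, with the seed in capitals and the rest in lower case, 5′ to 3′. They were taken from RefSeq (GRCm38.p6) except that of mmu-miR-199b*, which was taken from the study's supplementary list of sequences. The first set holds the miRNAs that passed the test at 8 weeks and were detected on all 3 arrays, with mmu-miR-31*, the other arm of the mmu-miR-31 hairpin.
mmu-miR-34a: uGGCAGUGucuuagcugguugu
mmu-miR-199b*: cCCAGUGUuuagacuaccuguuc
mmu-miR-31: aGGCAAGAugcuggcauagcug
mmu-miR-31*: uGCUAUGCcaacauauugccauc
mmu-miR-301a: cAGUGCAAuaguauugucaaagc
mmu-miR-802: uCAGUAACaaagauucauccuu
mmu-miR-146a: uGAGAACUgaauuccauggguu
The 7 sequences carry 7 different seeds. mmu-miR-34a lies at chr4:150068473-150068494 on the plus strand, mmu-miR-31 at chr4:88910614-88910635 on the minus strand and mmu-miR-31* at chr4:88910577-88910599 beside it. mmu-miR-301a (chr11:87113054-87113076, plus strand) lies within the annotated span of the protein-coding gene Ska2. mmu-miR-802 lies at chr16:93369737-93369758 and mmu-miR-146a at chr11:43374435-43374456, and no RefSeq gene other than a miRNA spans either.

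The second set pairs miRNAs that share a seed or a locus with them or with each other, because members of these families differed in the size of their change.
mmu-miR-199a-5p: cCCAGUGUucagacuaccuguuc
mmu-miR-199b: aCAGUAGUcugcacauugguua
mmu-miR-130a: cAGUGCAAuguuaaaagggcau
mmu-let-7e: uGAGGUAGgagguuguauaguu
mmu-let-7i: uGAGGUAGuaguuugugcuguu
mmu-let-7a: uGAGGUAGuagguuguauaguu
mmu-miR-125a-5p: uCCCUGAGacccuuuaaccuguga
mmu-miR-125b-5p: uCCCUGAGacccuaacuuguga
mmu-miR-497: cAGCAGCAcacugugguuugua
mmu-miR-195: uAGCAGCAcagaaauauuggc
mmu-miR-16: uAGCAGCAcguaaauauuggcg
mmu-miR-200a: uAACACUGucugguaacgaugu
mmu-miR-200b: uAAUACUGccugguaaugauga
The mature sequence of mmu-miR-199a-5p differs from that of mmu-miR-199b* at a single base, C10U counted from the 5′ end of mmu-miR-199a-5p, outside the seed. mmu-let-7e and mmu-let-7a also differ at a single base, G9U from mmu-let-7e, directly after the seed. How far the probes separate sequences this close was not tested. The feature named mmu-miR-199b reads a strand that is identical in RefSeq for the miR-199a and miR-199b hairpins. mmu-let-7e (chr17:17830366-17830387), mmu-miR-125a-5p (chr17:17830817-17830840) and mmu-miR-99b (chr17:17830194-17830215) lie side by side within the span of Spaca6, and mmu-miR-497 (chr11:70234730-70234751) lies beside mmu-miR-195 (chr11:70235062-70235082).

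The direction of most differences depended on how the arrays were scaled. As deposited, with no scaling between arrays, both CCL4 arrays were brighter than the olive oil array for 112 of the 119 miRNAs detected on all 3 (94.1%), and none had both CCL4 arrays dimmer. The median difference was 0.46 on the log2 scale, a 1.38-fold higher signal. The methods give division by the 75th percentile of the measurements. It was 11.01 and 8.68 signal units on the CCL4 arrays and 6.48 on the olive oil array. After this division 28 of 119 (23.5%) were higher on both CCL4 arrays, 75 (63%) were lower on both, and the median difference was -0.13. With the median of the miRNAs detected on all 8 arrays as the scale, 23 were higher on both, 87 (73.1%) were lower on both, and the median difference was -0.24. A single factor per array moves every miRNA above the floor of 0.01 by the same log2 amount, and values below are on the scale divided by the 75th percentile ("scaled") unless signals are named.

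**Figure D1:**
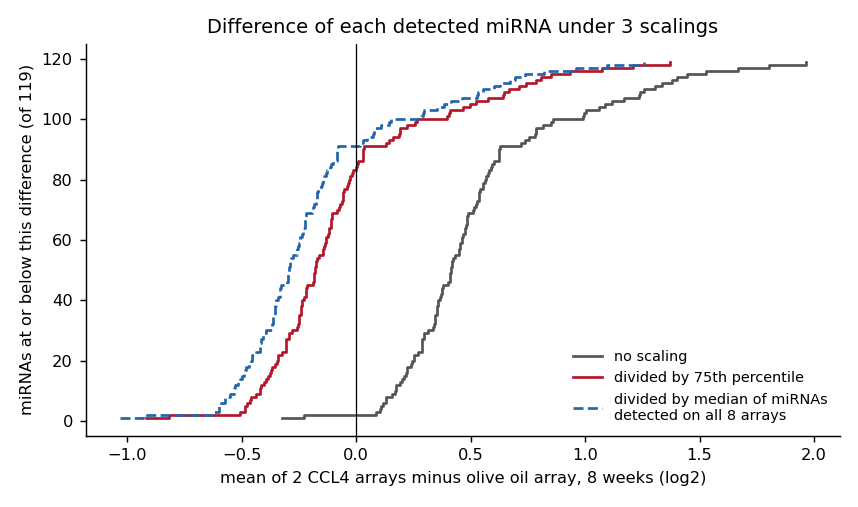
Cumulative number of the 119 miRNAs detected on all 3 arrays (vertical axis) against the log2 difference between the mean of the 2 CCL4 arrays and the olive oil array of 8 weeks (horizontal axis), with no scaling, after division by the 75th percentile and after division by the median of miRNAs detected on all 8 arrays. The 3 curves have nearly the same shape, and their medians lie at 0.46, -0.13 and -0.24.

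Control spots of the array were also brighter on the CCL4 arrays. Over 5 control features of the array, the ratio of CCL4 replicate 1 to olive oil lay between 1.31 and 1.56, and that of replicate 2 between 1.16 and 1.38. The median ratio over the 119 miRNAs was 1.52 on replicate 1 and 1.25 on replicate 2, and the ratio of 75th percentiles was 1.70 and 1.34. A bright corner spot went slightly the other way, with 1282 and 1235 units on the CCL4 arrays and 1384 on olive oil. The part of array brightness in the unscaled differences was not tested. All 3 arrays lay in the same row of the same slide and were read in 1 scan, and none of their mouse miRNA spots was saturated. Detected miRNAs numbered 145 and 123 on the CCL4 arrays and 126 on olive oil.

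In the test at 8 weeks 8 miRNAs passed on the higher side and 1 on the lower. For 2 of the 8, mmu-miR-379 and mmu-miR-335-5p, the call rests on olive oil readings below detection and no rise can be stated, and the other 6 rose. limma was fitted to all 8 arrays with a mean for each treatment and week, on 133 miRNAs detected on at least 3 arrays, of which 132 belong to the 146. The 8 make up 6.02% of those tested, and the 1 that fell 0.752%. They were mmu-miR-34a, both strands of miR-31 (mmu-miR-31 and mmu-miR-31*), mmu-miR-301a, mmu-miR-802, mmu-miR-199b*, mmu-miR-379 and mmu-miR-335-5p, and mmu-miR-146a fell. Without scaling 15 passed on the higher side (11.3%) and 0 fell (0 also at an unadjusted p under 0.05), and the 15 held all 8 of those named. With the median as scale 11 passed on the higher side (8.27%) and 29 fell (21.8%, mmu-miR-146a not among them). Of the 8, 7 passed under these 3 scalings, mmu-miR-802 being the exception. With the 75th percentile of the miRNAs detected on all 8 arrays as scale, only mmu-miR-199b* passed on the higher side and 0 fell. The olive oil array of 8 weeks has no replicate, so the spread came from the CCL4 pairs of 6 and 8 weeks, with 2 residual degrees of freedom. limma drew it together to 1 standard error for every miRNA, 0.284 on the scaled log2 difference and 0.424 without scaling. Without either CCL4 array of 8 weeks 3 still passed on the higher side (mmu-miR-379 and mmu-miR-335-5p, with mmu-miR-199b* as the third) and 0 fell (4 and 0 at an unadjusted p under 0.05 without replicate 1 and without replicate 2), and without either CCL4 array of 6 weeks 16 passed on the higher side and 4 fell. By a plain rule of size with no test, 15 of the 146 miRNAs were at least 1.5-fold higher on each CCL4 array after scaling (10.3%), 10 of these 15 being detected on all 3 arrays, and 1, mmu-miR-146a, was at least 1.5-fold lower on each (0.685%).

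The miRNAs with the largest rises among those detected on all 3 arrays were mmu-miR-199b* and mmu-miR-34a. mmu-miR-199b*, a strand of the miR-199b hairpin, read 93.8 and 70.9 units on the CCL4 arrays and 20.9 on olive oil. mmu-miR-34a read 423 and 379 units in CCL4 and 115 in olive oil. On both, each CCL4 array lay at more than 3 times the olive oil signal, and the CCL4 arrays differed from each other by far less than from olive oil. After scaling, mmu-miR-199b* was 2.59-fold higher in CCL4 (log2 difference 1.37, standard error 0.284, limma adjusted p = 0.000101) and 3.91-fold higher without scaling. mmu-miR-34a was 2.31-fold higher (log2 1.21, adjusted p = 0.000938) and 3.49-fold higher without scaling.

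Both strands of the miR-31 hairpin rose by similar amounts. mmu-miR-31, the strand known for its roles in epithelium, read 113 and 97.0 units in CCL4 and 32.9 in olive oil, a scaled rise of 2.11-fold (log2 1.07, limma adjusted p = 0.00507). Its partner strand mmu-miR-31* read 26.9 and 23.3 units in CCL4 and 8.55 in olive oil, where it was not detected. The olive oil reading was above the lowest detected signal of that array. Against this reading, the scaled rise of mmu-miR-31* was 1.94-fold (log2 0.96, limma adjusted p = 0.0193), an estimate and not a lower bound. The 2 strands come from 1 hairpin and are not independent. The other epithelial miRNAs detected, mmu-miR-200a and mmu-miR-200b, were higher on both CCL4 arrays by 1.33-fold and 1.44-fold and did not pass the test (adjusted p = 0.551 and 0.414 by limma). Of the 6 miRNAs listed for cholangiocytes and other epithelium, 3 were detected, and mmu-miR-200c, mmu-miR-141 and mmu-miR-429 were not. All 3 were higher on both CCL4 arrays after scaling, beside 23.5% of the 119. The study had picked all 3 for higher levels in CCL4 on these same arrays, so their direction is not independent evidence.

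**Figure D2:**
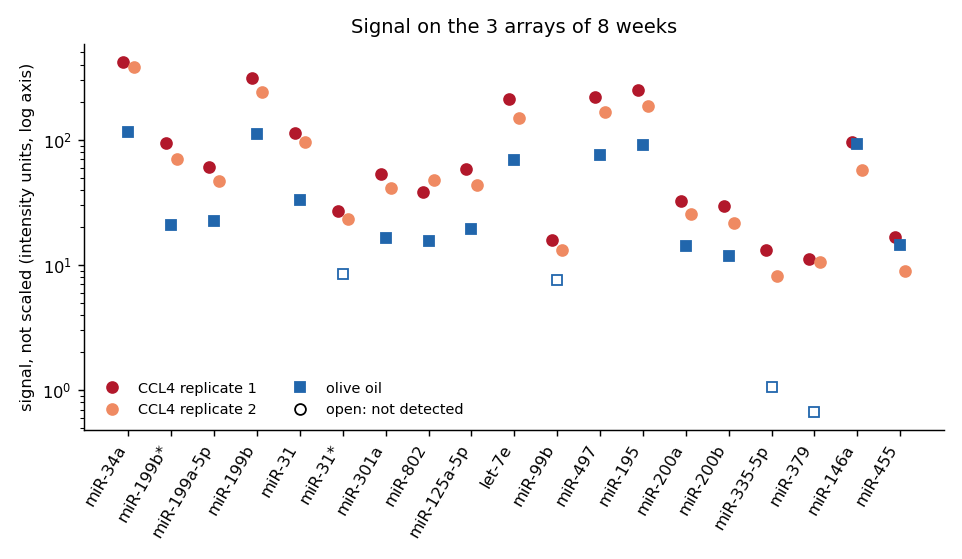
Signal of 19 named miRNAs (horizontal axis) on the CCL4 arrays and the olive oil array of 8 weeks, as deposited and without scaling (vertical axis, intensity units on a log axis), with open symbols where the miRNA was not detected. Both CCL4 points lie above the olive oil point for 17 of them, and for mmu-miR-146a and mmu-miR-455 the olive oil point lies between the CCL4 points.

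mmu-miR-301a and mmu-miR-802 also rose, and the CCL4 arrays were close for the first and apart for the second. mmu-miR-301a read 53.4 and 41.4 units in CCL4 and 16.3 in olive oil, a scaled rise of 1.91-fold (log2 0.93, limma adjusted p = 0.0217). mmu-miR-802, a miRNA known to be high in liver, read 38.4 and 47.6 units in CCL4 and 15.7 in olive oil. It was the only 1 of the 8 for which replicate 2 was the brighter CCL4 array, with scaled differences of 0.52 and 1.18. Its mean rise was 1.80-fold (log2 0.85, adjusted p = 0.0438).

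mmu-miR-379 and mmu-miR-335-5p passed the test only through olive oil readings below detection. mmu-miR-379, of the imprinted Dlk1-Dio3 cluster, read 11.1 and 10.5 units in CCL4 and 0.666 in olive oil. mmu-miR-335-5p, which lies within the imprinted gene Mest, read 13.3 and 8.16 units in CCL4 and 1.06 in olive oil. Neither was detected on the olive oil array, where the lowest detected signal of any mouse miRNA was 7.80 units. Taken against that signal after scaling, neither shows a rise, so no fold change or p is given. Of 20 miRNAs listed for the Dlk1-Dio3 cluster, a list that need not be complete, 4 were detected. The others of these 4 were mmu-miR-127, mmu-miR-154 and mmu-miR-376b, each on CCL4 replicate 1 only. mmu-miR-136 and mmu-miR-377, also detected on that array only, were not in the list. mmu-miR-99b was likewise detected on both CCL4 arrays (15.8 and 13.3 units) and not on olive oil (7.63 units). Against the lowest detected signal of the olive oil array its scaled difference was 1.23-fold, and it did not pass (limma adjusted p = 0.656). In the other direction only mmu-let-7b* was detected on olive oil and on no CCL4 array, with 11.1 units against 10.3 and 11.3.

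A further group stood next in order and passed the test only under some scalings. mmu-miR-125a-5p read 58.8 and 44.0 units in CCL4 and 19.3 in olive oil, and mmu-let-7e, beside it on chromosome 17, read 213, 151 and 68.9. mmu-miR-497 read 221, 168 and 76.4, and its neighbour mmu-miR-195 read 253, 185 and 90.4. On these 4 each CCL4 array was at least 2.05 times the olive oil signal. Their scaled log2 differences were 0.81, 0.78, 0.74 and 0.67, with limma adjusted p = 0.058, 0.0677, 0.0975 and 0.164. Without scaling all 4 passed (adjusted p = 0.0161, 0.0174, 0.0222 and 0.0335), and with the median as scale mmu-miR-195 did not. mmu-miR-199b (313, 244 and 112 units) and mmu-miR-199a-5p (60.9, 46.6 and 22.6 units) differed by 0.71 and 0.65, with adjusted p = 0.12 and 0.171 after scaling and 0.0254 and 0.0344 without. With the median as scale mmu-miR-199a-5p passed (0.0343) and mmu-miR-199b did not (0.0538). mmu-miR-96 was the last to pass without scaling, with 24.6 and 25.8 units in CCL4 and 10.7 in olive oil.

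The list of stellate cell and fibroblast miRNAs was higher on both CCL4 arrays throughout its detected members. All 5 of the detected members, out of 6 on the array (mmu-miR-145 was not detected), were higher on both CCL4 arrays under scaling, beside 23.5% of the 119. Of the 5 tested, 1 (mmu-miR-199b*) passed, beside 6.02% of all tested. The study picked mmu-miR-199a-5p, mmu-miR-199b and mmu-miR-199b* for higher levels in CCL4 on these same arrays. Their direction is therefore not independent evidence, and with sequences this closely related they are not independent of each other. The median scaled difference was 0.65, and that of all tested was -0.13. The others of this list were mmu-miR-214, which shares a locus with a miR-199a hairpin and read 32.1, 19.9 and 11.9 units, and mmu-miR-143 of smooth muscle and mesenchyme (54.0, 41.8 and 23.8 units). Their scaled differences were 0.50 and 0.40 (limma adjusted p = 0.469 and 0.551).

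A list of 11 miRNAs, picked beforehand for higher levels in CCL4 on these same arrays, was higher on both CCL4 arrays of 8 weeks after scaling in all 11, beside 23.5% of the 119. Since the study chose the list on these arrays, it is not independent evidence of its direction. In this test 4 of the 11 rose (mmu-miR-802, mmu-miR-31, mmu-miR-199b* and, as the fourth, mmu-miR-34a), beside 6.02% of all tested, 9 did so without scaling, beside 11.3%, and the scaled differences ranged from 0.41 to 1.37.

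Within families that share a seed, members differed in their change. Of 9 miRNAs with the let-7 seed GAGGUAG, mmu-let-7e and mmu-let-7i (702, 567 and 366 units) were higher on both CCL4 arrays after scaling, and the other 7 were lower on both, as were 63% of the 119. mmu-let-7a, which differs from mmu-let-7e at 1 base, read 2969.7 and 2529.9 units in CCL4 and 2434 in olive oil, a scaled difference of -0.42 with a 95% interval from -0.98 to 0.13. The median of the 9 was -0.25, and with the median as scale 6 of them fell, beside 21.8% of all tested. Of 6 miRNAs with the seed AGCAGCA, mmu-miR-497 and mmu-miR-195 had the differences given above. mmu-miR-15b (0.22) and mmu-miR-322 (0.16) lay between, and mmu-miR-16 (-0.18) and mmu-miR-15a (-0.25) lay lowest.

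The pairs showed the same unevenness. mmu-miR-130a, which has the seed of mmu-miR-301a, read 1359.6 and 1181 units in CCL4 and 698 in olive oil, a scaled difference of 0.27 (95% interval -0.29 to 0.82). mmu-miR-125b-5p, which has the seed of mmu-miR-125a-5p, read 400.2, 389 and 262 units and differed by 0.00 (95% interval -0.56 to 0.55). The 3 miR-29 members were lower on both CCL4 arrays after scaling, by -0.42, -0.26 and -0.38 for mmu-miR-29a, b and c, and higher on both without scaling. None passed the scaled test, and all 3 fell with the median as scale, where 21.8% of all tested did. The differences between members of a family were not tested.

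**Figure D3:**
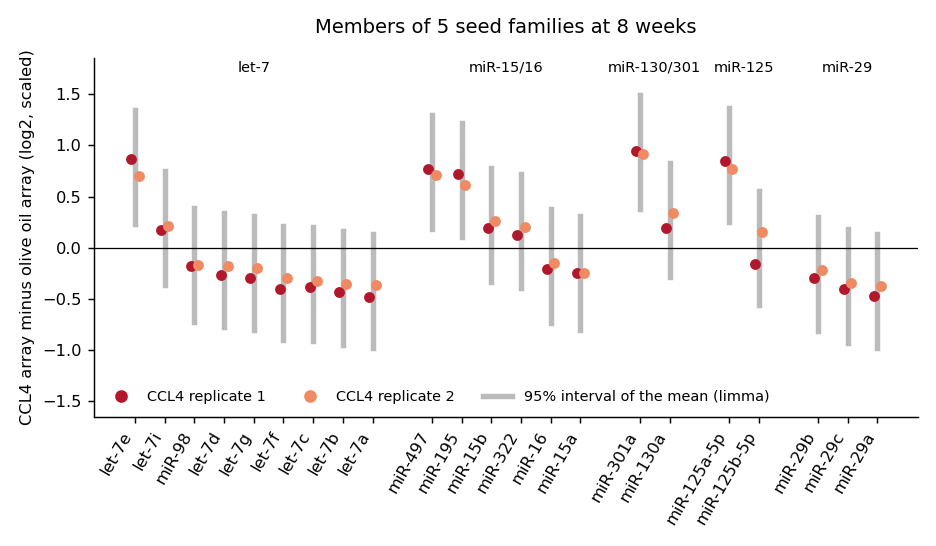
Scaled log2 difference of each CCL4 array from the olive oil array of 8 weeks (points) for the members of 5 seed families (horizontal axis), with grey bars for the 95% interval of the mean difference from limma. mmu-let-7e, mmu-miR-497, mmu-miR-195, mmu-miR-301a and mmu-miR-125a-5p have bars above 0, and the bars of their family members cross 0.

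The fall of mmu-miR-146a depended on the scaling. mmu-miR-146a, a miRNA induced in inflammatory signalling, read 95.4 units on CCL4 replicate 1, 57.6 on replicate 2 and 92.9 on olive oil. Replicate 1 and olive oil were thus level in signal, and both CCL4 arrays were lower only after scaling, by -0.73 and -1.11. The scaled difference was -0.92 (standard error 0.284, limma adjusted p = 0.0227), and the unscaled difference was -0.33 (adjusted p = 0.589). With the median as scale it was -1.03 and did not pass (adjusted p = 0.0651), and without either CCL4 array of 8 weeks it did not pass. mmu-miR-455 had the same pattern with 16.8, 8.95 and 14.3 units and a scaled difference of -0.82 (adjusted p = 0.0565). Without scaling the lower mean of both came from replicate 2.

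The lists of hepatocyte and leukocyte miRNAs had medians near that of all tested, and each held 1 miRNA that passed, mmu-miR-802 (higher) and mmu-miR-146a (lower). mmu-miR-122 read 35101 and 30799.5 units in CCL4 and 30018 in olive oil. Its scaled difference was -0.46 with a 95% interval from -1.02 to 0.09 (limma adjusted p = 0.469), and without scaling it was 0.13. With the median as scale it was -0.57 and passed (adjusted p = 0.0229), as 1 of the 29 that fell there. Of the 6 hepatocyte miRNAs listed, 5 were detected, 4 were lower on both CCL4 arrays after scaling, as were 63% of the 119, and mmu-miR-802 rose, and the median difference was -0.23. mmu-miR-192 and mmu-miR-194, which are made from shared transcripts, differed by -0.23 and -0.18. Of 7 leukocyte miRNAs 4 were detected, with a median difference of -0.13, equal to that of all tested. Of these 4, 1 fell (mmu-miR-146a, -0.92), beside 0.752% of all tested. mmu-miR-223 of neutrophils and monocytes read 188, 138 and 110 units and differed by -0.04 (95% interval -0.60 to 0.52). mmu-miR-150, mmu-miR-155 and mmu-miR-146b were not detected. None of 4 muscle and none of 4 pancreas miRNAs was detected, and of 3 neuronal ones only mmu-miR-128 was, on CCL4 replicate 1.

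Apart from mmu-miR-451 (-0.01, described below), other miRNAs with the highest signals on the olive oil array differed by -0.42 to -0.06 after scaling. mmu-miR-21, which is known from injured and fibrotic tissue, read 15397, 12545 and 9627 units. Its scaled difference was -0.06, with a 95% interval from -0.62 to 0.49. mmu-miR-720, mmu-miR-22, mmu-let-7f, mmu-let-7c and mmu-miR-29a differed by -0.14 to -0.42, and without scaling by 0.17 to 0.45. Each of these was higher in signal and lower after scaling on both CCL4 arrays, and none passed the scaled or the unscaled test. With the median as scale mmu-miR-22, mmu-let-7f, mmu-let-7c and mmu-miR-29a fell, among the 21.8% of all tested.

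Red cell miRNAs were 3 of the 4 with the largest scaled gaps between the CCL4 arrays, the other being mmu-miR-802. mmu-miR-144 read 682 units on replicate 1 and 320 on replicate 2, against 259 on olive oil. mmu-miR-451 read 9808, 4936 and 4652 units, and mmu-miR-486 read 88.1, 39.7 and 43.3. On all 3, replicate 1 stood alone in unscaled signal, where replicate 2 was near the olive oil array. The scaled differences of replicates 1 and 2 from olive oil were 0.63 and -0.12 for mmu-miR-144. They were 0.31 and -0.34 for mmu-miR-451 and 0.26 and -0.55 for mmu-miR-486. After scaling replicate 1 was 1.68, 1.57 and 1.75 times replicate 2, and the median gap between the CCL4 arrays over the 119 miRNAs was 0.10 in log2. Of the 119, 6 differed by more than 0.5 between the CCL4 arrays, these 3 with mmu-miR-802, mmu-miR-29c* and mmu-miR-455. mmu-miR-29c* read 13.1, 15.8 and 13.2 units. The summed signal of the 3 red cell miRNAs was 10579 and 5296 units on the CCL4 arrays and 4955 on olive oil, and the part of blood content in other differences was not tested. None of the 3 passed the test (limma adjusted p = 0.758, 0.986 and 0.842).

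**Figure D4:**
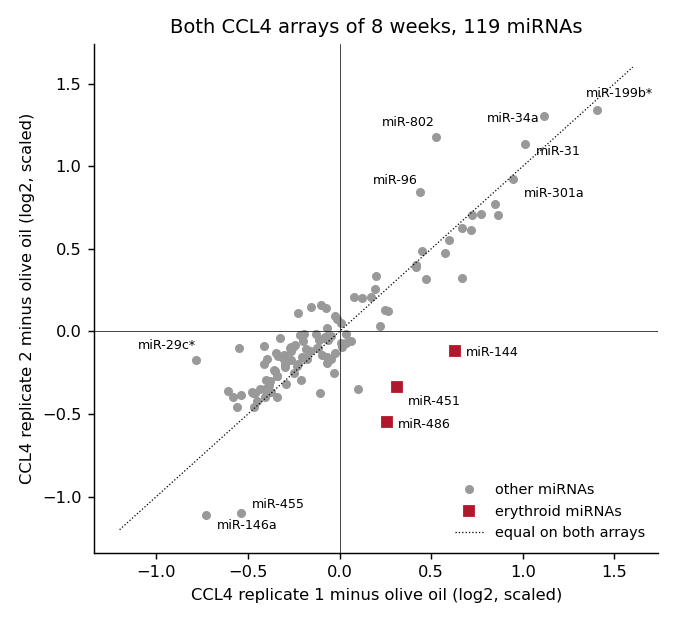
Scaled log2 difference from the olive oil array of 8 weeks on CCL4 replicate 1 (horizontal axis) and on CCL4 replicate 2 (vertical axis) for the 119 miRNAs detected on all 3 arrays, with red cell miRNAs as squares and the line of equal differences dotted. Most points lie near the line, and mmu-miR-144, mmu-miR-451 and mmu-miR-486 lie below it, above 0 on replicate 1 and below 0 on replicate 2.

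The rises stood outside the range of the olive oil arrays of the other weeks. Set against the 3 olive oil arrays together, both CCL4 arrays of 8 weeks were above all 3 for 22 of the 119 miRNAs after scaling and below all 3 for 66. For mmu-miR-34a the olive oil signal was 60.3 units at 4 weeks and 69.7 at 6 weeks, below the 115 of 8 weeks, so the rise was smaller against the olive oil of its own week than against the others. mmu-miR-301a read 18.8 units in olive oil at 4 weeks and 11.7 at 6 weeks, on either side of the 16.3 of 8 weeks. With the 3 olive oil arrays as 1 group, 18 miRNAs passed on the higher side and 10 fell, and 7 of the 8 that passed within 8 weeks were among the 18. The exception was mmu-miR-335-5p (limma adjusted p = 0.0575).

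The same differences at 4 and 6 weeks, each against the olive oil array of its own week, had the same sign for most of the rises. In the order of weeks 4, 6 and 8 they were 1.46, 1.55 and 1.37 for mmu-miR-199b* and 1.07, 1.10 and 1.21 for mmu-miR-34a. mmu-miR-31 differed by 0.87, 0.64 and 1.07, and mmu-miR-146a by -0.88, -0.82 and -0.92. mmu-miR-301a (0.00, 0.55 and 0.93) and mmu-miR-802 (0.12, 0.92 and 0.85) were level at 4 weeks, where each treatment had 1 array. mmu-miR-122 differed by -1.28, -0.73 and -0.46. The test of 8 weeks against the mean of 4 and 6 weeks passed for none of the 132 tested members, the lowest adjusted p being 0.109 by limma for mmu-miR-144 (15 of all 133 were under an unadjusted p of 0.05).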

How the data were processed

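Total liver RNA was labelled with Cy3 and hybridized to Agilent mouse miRNA arrays. Per the file headers, the authors' intensity values were made with Feature Extraction 10.5.1.1 (the methods name another version), which removed background from each spot and added up the probes of a miRNA (20 spots for 145 of the 146 miRNAs), with no scaling between arrays. The deposited log2 table equalled log2 of these signals, with signals under 1 set to 1, within 1.06e-06 over 1701 values of the 3 arrays.

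Each array was scaled to the 75th percentile over its 567 mouse miRNAs, as in the methods, values below 0.01 were then raised to 0.01, and log2 was taken. The methods set this floor before the division, which was run as an alternative. Intervals are 1.96 standard errors of the limma fit (limma 3.58.1, R 4.3.3), which used a mean per group over 8 arrays, with Benjamini-Hochberg adjustment over the 133 miRNAs detected on at least 3 arrays and a threshold of 0.05. The fit was tested on simulated data. Alternatives covered scaling, floor, background correction, detection filter, samples, replicate block and fold. The number of arrays limits the precision. Where the olive oil array did not detect a miRNA, its fold was taken against the higher of its own reading and the lowest detected signal of that array. Such a fold is an estimate and not a lower bound.

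The miRNAs and lists were chosen with earlier results of these data known. Named were up to 10 of the largest rises and as many falls among those past the threshold, detected on all 3 arrays and with both CCL4 arrays on the same side, miRNAs detected only in 1 treatment, the 10 highest signals on olive oil, the 5 largest gaps between the CCL4 arrays, those with a week difference, and list members by role. Older array names were matched to current RefSeq arm names by hand, and for 27 of 35 the spacing to another matched miRNA on the chromosome was the same in both annotations. Probe coordinates of the files (mm9) were not printed. Human biopsies, real-time qPCR and cell experiments were not analysed here.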

Additional observations from a re-analysis of the deposited data

Results flagged for a closer look

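mmu-miR-801 was the 1 miRNA whose CCL4 effect at 8 weeks differed from the mean of 4 and 6 weeks, by a log2 of -1.85 (standard error 0.357, limma adjusted p = 5.82e-05). It was not detected on any array of 8 weeks and is not among the 146 miRNAs described above. At 4 weeks it read 28.6 units in CCL4 and 2.30 in olive oil, at 6 weeks 13.5 and 5.26 in CCL4 and 7.42 in olive oil, and at 8 weeks 4.28 and 1.86 in CCL4 and 2.99 in olive oil.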

How the results depend on the processing

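mmu-miR-199b* and mmu-miR-34a kept their direction under every alternative run, with log2 differences of 0.61 (normexp) to 1.97 for mmu-miR-199b* and 1.10 to 1.80 for mmu-miR-34a, and over 22 settings they passed under 20 and 17. Rises and falls below count the miRNAs past the threshold, whether or not olive oil was detected. Division by the 75th percentile of the miRNAs detected on all arrays left 1 rise (mmu-miR-199b*), 0 falls (33 at an unadjusted p under 0.05 by limma), 2 miRNAs at least 1.5-fold lower and 0 week differences (21 unadjusted), and mmu-miR-801 moved to 0.00. The median as scale gave 29 falls, 3 at least 1.5-fold lower and 0 week differences (32 unadjusted). Without scaling there were 15 rises, 0 falls, 35 miRNAs at least 1.5-fold higher, 0 lower and 2 week differences. Quantile normalization gave 2 falls, as did a floor at the lowest detected value. The floor before the division, the order of the methods, gave 2 week differences and the values of the processed table gave 3. Background correction by normexp, which adds an offset of 50 at every spot, left 1 rise (mmu-miR-34a), 0 falls, 5 miRNAs at least 1.5-fold higher, 0 lower and 0 week differences (5 unadjusted). With no filter on detection there were 0 rises (20 unadjusted), 7 falls and 29 week differences. The arrays of 8 weeks alone gave 16 rises and 4 falls, and the 3 olive oil arrays as 1 group 18 and 10. The methods' t-test gave 10 rises and 8 falls unadjusted and 0 of each after Benjamini-Hochberg adjustment. At 2-fold, 6 miRNAs were higher and 0 lower. Scaling by 5 control features, chosen after seeing the data, gave 16 rises, 0 falls (1 unadjusted) and 0 miRNAs at least 1.5-fold lower.

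Without scaling every difference between readings above the floor shifts by the same log2 amount, so uncalled values below 0 turned: mmu-let-7a 0.17, mmu-let-7c 0.24, mmu-let-7f 0.25, mmu-miR-122 0.13, mmu-miR-125b-5p 0.59, mmu-miR-15a 0.34, mmu-miR-16 0.41, mmu-miR-192 0.37, mmu-miR-194 0.41, mmu-miR-21 0.53, mmu-miR-22 0.25, mmu-miR-223 0.55, mmu-miR-29a 0.17, mmu-miR-29c* 0.12, mmu-miR-451 0.58, mmu-miR-486 0.45 and mmu-miR-720 0.45. With normexp the same ones except mmu-miR-29c* turned, in that order 0.06, 0.13, 0.10, 0.00, 0.34, 0.20, 0.23, 0.23, 0.24, 0.40, 0.11, 0.24, 0.02, 0.43, 0.12 and 0.33. With quantile normalization mmu-miR-125b-5p (0.08), mmu-miR-16 (0.06), mmu-miR-451 (0.00) and mmu-miR-720 (0.00) turned. With control features mmu-miR-125b-5p (0.16), mmu-miR-21 (0.10), mmu-miR-223 (0.12), mmu-miR-451 (0.15), mmu-miR-486 (0.02) and mmu-miR-720 (0.02) did so. Where readings were raised to the lowest detected signal, mmu-miR-335-5p went to -0.18 and mmu-miR-379 to -0.12, since their olive oil readings lie below it.

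Each array was left out in turn, except the olive oil array of 8 weeks. The influence of that array was not tested in this way. The counts of rises, falls and week differences changed under some of these fits, and 1 to 7 miRNAs were at least 1.5-fold lower. Differences then ranged from -0.15 to 0.15 for mmu-miR-125b-5p, -0.12 to 0.63 for mmu-miR-144, -0.09 to 0.01 for mmu-miR-223, -0.34 to 0.31 for mmu-miR-451 and -0.55 to 0.26 for mmu-miR-486.

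Replicate numbers of 6 and 8 weeks share only a number (correlation of the gaps between replicates 0.05 over 133 miRNAs). With the replicate block 6 miRNAs rose (mmu-miR-31* and mmu-miR-802 no longer passed), 2 fell and 2 had week differences, and mmu-miR-322 (-0.03), mmu-miR-451 (0.16) and mmu-miR-486 (0.18) changed sign. The block with no scaling, added after seeing the data, gave 2 rises and 0 falls (0 unadjusted). The cause of these changes was not tested. Slide and scan could not be used as a block, with 1 of each. Signals near detection limit what the low miRNAs can show.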
